A study of Mus musculus with 7 samples.

Results

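The genes described here encode 42 chaperones, protein folding enzymes and stress regulators, out of 55401 genes counted in mouse lung. They were chosen by name for their known roles in the heat shock response and the endoplasmic reticulum (ER) stress response, and all 42 passed the filter on low counts. They comprise 15 chaperones and heat shock factors of the cytosol and nucleus, 3 mitochondrial chaperones, 17 ER chaperones and folding enzymes, and 7 regulators of the response to ER stress and amino acid shortage. The lungs came from male C57BL/6 mice that were 6 to 8 weeks old and weighed 20 to 25 g. Every mouse was given bleomycin, an antitumour drug that damages lung epithelium and leads to fibrosis. In the BLM+HBO group (3 mice), hyperbaric oxygen (HBO), which is oxygen breathed under raised pressure, began on day 7 and was given at 2.5 ATA for 90 min per day over 14 days. By the Supplementary methods, mice that lost too little weight after bleomycin were excluded, in part by a weighing made after HBO had begun. The BLM group (4 mice) spent time in the chamber with no pressurized oxygen according to the sample records but went untreated according to the Supplementary methods, which could not be settled. RNA of the right lung lobes was sequenced on day 21, with 1 library per mouse, so that the comparison asks how lungs differed between mice with and without HBO after the same injury. No uninjured lung was analysed here, and P values weigh the difference between the groups against the spread among these 7 mice within their groups.

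Chaperones bind unfolded proteins and help them to fold or to be degraded. When unfolded proteins accumulate in the cytosol, heat shock factor HSF1 switches on the genes of the HSP70, HSP90 and small heat shock proteins together with their cochaperones. When they accumulate in the ER, the sensors IRE1, PERK and ATF6 start the unfolded protein response. IRE1 splices the mRNA of XBP1, PERK signalling raises translation of ATF4, and ATF6 is cut to release a transcription factor, which together raise ER chaperones and amino acid metabolism genes and, when stress persists, CHOP. Cells that secrete much protein, such as collagen-producing fibroblasts, plasma cells and alveolar type 2 cells, express many ER chaperones without injury.

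The members share short promoter motifs that these factors are known to bind, and they are shown because they are the sequences through which these pathways are known to act. Promoter sequences came from RefSeq (GRCm38.p6), which held 35 of the 42 genes. The 250 bases before each start were searched on both strands. The ER stress response element, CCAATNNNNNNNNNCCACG, is bound by ATF6 with the CCAAT factor NF-Y. It was found before 35 of 27025 genes in the table (0.13%) and before 7 of 15 ER members (46.7%), and before none of the other members searched. These 7 matches are given 5′ to 3′ on the strand of the gene with the motif in capitals, and capitals that begin with CGTGG are matches on the opposite strand.
Hspa5, chr2:34772005-34772063, plus strand: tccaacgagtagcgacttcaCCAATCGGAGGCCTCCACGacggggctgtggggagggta
Hsp90b1, chr10:86705618-86705676, minus strand: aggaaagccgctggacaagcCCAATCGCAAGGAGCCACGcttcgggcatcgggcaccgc
Calr, chr8:84847055-84847113, minus strand: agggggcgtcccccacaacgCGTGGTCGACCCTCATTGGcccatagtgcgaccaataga
Canx, chr11:50325780-50325838, minus strand: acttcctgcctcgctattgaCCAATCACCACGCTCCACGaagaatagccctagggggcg
Pdia6, chr12:17266471-17266529, plus strand: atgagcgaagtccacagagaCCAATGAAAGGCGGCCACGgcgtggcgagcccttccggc
Dnajc3, chr14:118937807-118937865, plus strand: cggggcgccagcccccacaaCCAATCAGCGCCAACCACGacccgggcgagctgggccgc
Creld2, chr15:88819500-88819558, plus strand: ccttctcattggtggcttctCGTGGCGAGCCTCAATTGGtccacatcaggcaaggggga

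The Hspa5 match lay 65 to 47 bases before the start, and the others between 212 and 80 bases before it. Hsp90b1 held another match on the opposite strand, 107 to 89 bases before its start. A related motif, ATTGGNCCACG (the ER stress response element II), was found before 10 genes of the table (0.037%), of which Herpud1 was the only member. Herpud1 was also the only ER member with TGATGNAA, the core of the element read by ATF4 with C/EBP factors. That core was found before 1056 genes of the table (3.91%) and before 3 of the 7 stress regulators, namely Atf3, Chac1 and Asns. No member's window held both kinds of ER stress response element. The heat shock element, written here as GAANNTTCNNGAA, was found before 139 genes (0.514%). It was found before Hspd1 and Hspe1, which lie head to head and share the stretch shown, and before none of the 11 cytosolic and nuclear members in the table. These letters are a strict form of the element, and no match says only that they were absent from this window. For Hspe1, both strands match in overlapping positions and the capitals mark the union.
Herpud1 (element II), chr8:94386357-94386407, plus strand: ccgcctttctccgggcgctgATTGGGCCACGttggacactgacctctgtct
Herpud1 (ATF4 element, opposite strand), chr8:94386297-94386344, plus strand: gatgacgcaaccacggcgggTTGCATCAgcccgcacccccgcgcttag
Hspe1 (heat shock element), chr1:55088039-55088096, plus strand: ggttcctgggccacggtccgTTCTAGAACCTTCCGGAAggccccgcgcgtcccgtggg
Atf3 (ATF4 element, opposite strand), chr1:191183416-191183463, minus strand: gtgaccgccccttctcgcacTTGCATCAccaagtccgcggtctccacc
Chac1 (ATF4 element, opposite strand), chr2:119351029-119351076, plus strand: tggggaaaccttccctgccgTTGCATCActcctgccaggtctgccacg
Asns (ATF4 element), chr6:7693210-7693252, minus strand: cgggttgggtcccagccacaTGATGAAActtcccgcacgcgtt

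The libraries held between 18157161 and 26365969 counts. Replicates of a group differed by far more than counting noise, with a chi-square per gene of 22.12 or more for each pair. On the first principal component of log2 CPM, the BLM mice lay between -47.6 and -6.08, BLM+HBO 1 at 54.85 and BLM+HBO 3 at 37.8. BLM+HBO 2 lay at -0.996, nearest to the BLM mice. The lung markers Sftpc, Scgb1a1, Ager and Cdh5 were abundant in every mouse, with 4549 CPM for Sftpc in the lowest mouse, CPM being TMM-normalised counts scaled to a common library size. Since this is whole tissue, fewer cells of a type and less RNA per cell cannot be told apart in any of the values.

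The members differed widely in level. Per length of exon, the highest level in BLM was that of Hsp90ab1, the constitutive cytosolic HSP90, at 389.8 ± 40.8 RPKM (SD, n = 4). It was followed by 2 ER proteins that act on collagen, P4hb at 289.7 ± 19.9 RPKM and Serpinh1 at 276 ± 23.9 RPKM, which differed by less than their SDs. Hspa8, the constitutive HSP70, stood at 251 ± 18.9 RPKM, Calr at 235 ± 6.60, Pdia3 at 219 ± 9.77 and Hspa5 at 167 ± 9.05. At the other end were Hsf2 at 1.89 ± 0.412 RPKM, the stress-inducible HSP70 gene Hspa1a at 2.31 ± 0.781 and Chac1 at 2.63 ± 0.548, whose order is within their SDs. The constitutive HSP70 and HSP90 genes thus lay far above the heat-inducible Hspa1a in BLM lungs on the RPKM scale.

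Some of these levels are uncertain because reads that match several places were not counted. Of all 100-base windows of the longest transcript, 56.5% for Hspa1a and 49.9% for Hspa1b also occur in another gene, mostly in each other. The share was 47.5% for Hsp90aa1, 42.7% for Hspb1, 32.1% for Hspa8, 26.9% for Hspd1 and 24% for Dnaja1, largely through pseudogenes. The other 35 members shared at most 5.57%. These are shares of single windows, whereas the reads were paired, so they are not the share of reads lost. The annotation lists a second Ddit3 gene over the first, and reads on both would not be counted, so the Ddit3 level is uncertain too.

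Between the groups, no member was called by the rule of the study, which asks for a fold change above 1.5 and a P below 0.05 before adjustment. By edgeR's quasi-likelihood test 0 of 42 were called, where 6.29% of the 17465 genes tested were called (3.4% higher and 2.89% lower in BLM+HBO). DESeq2 (6.72% of all genes) and limma-trend (6.68%) also called 0 members. At an unadjusted P below 0.05 whatever the fold, edgeR gave 2 members, P4hb and Xbp1, both lower in BLM+HBO. That is 4.76% of the members, beside 10.7% of all genes in either direction (5.11% higher and 5.54% lower). DESeq2 gave the same 2 members (11.7% of all genes), and limma-trend added Hspb1 (11.2% of all genes). After Benjamini-Hochberg adjustment over all genes, no member passed 0.05 by any tool, and the lowest adjusted P of a member was 0.447 by edgeR. Over all genes the adjusted threshold was passed by 0% with edgeR, 0.733% with DESeq2 and 0% with limma-trend.

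The differences were small and mostly in one direction. The mean was lower in BLM+HBO for 31 of 42 members (73.8%), beside 48.8% of all genes, and the median log2 fold change was -0.12, beside 0.0071 for all genes tested. Log2 fold changes ran from -0.38 for Hspa1b to 0.29 for Herpud1. For 30 of the 42 (71.4%), the 95% interval lay within 1.5-fold either way, beside 47.1% of all genes, so that a larger difference was outside the interval for those 30. The 3 BLM+HBO values all lay below the 4 BLM values for P4hb, Xbp1 and Hspb1 (7.14% of the members) and lay above them for no member. Among all genes, 8.77% showed such a separation, 4.05% higher and 4.72% lower.

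**Figure D1:**
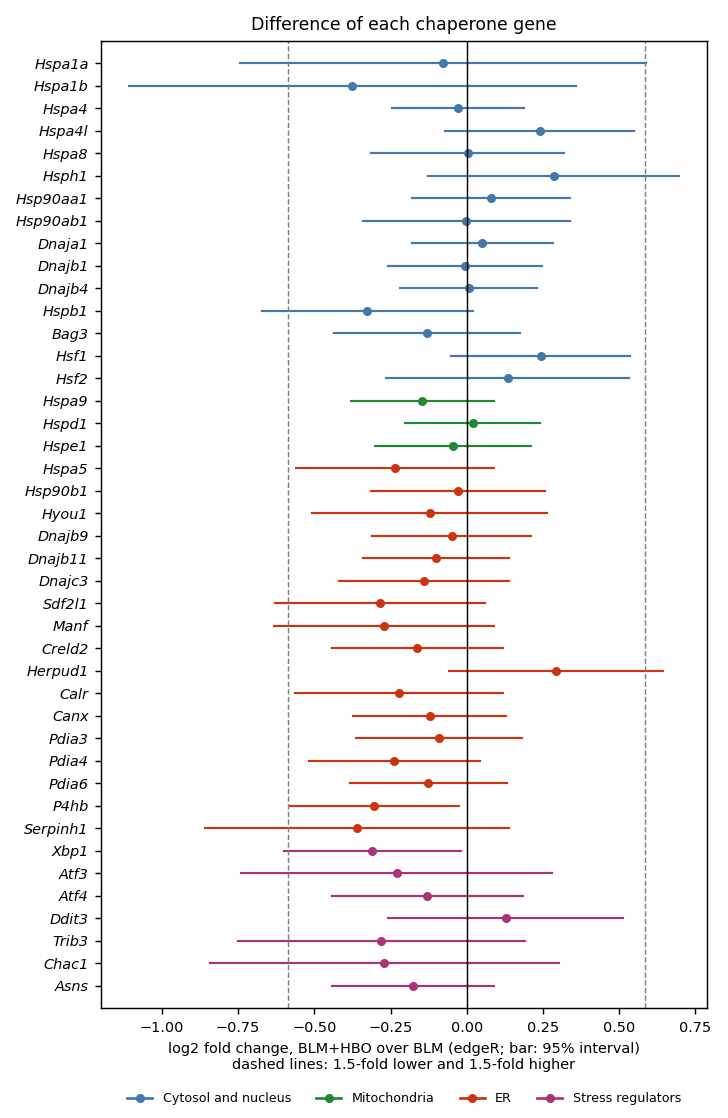
Log2 fold change of each of the 42 genes (BLM+HBO over BLM, x axis) with its 95% interval from edgeR's quasi-likelihood test, coloured by compartment, with dashed lines at 1.5-fold. No point reaches a dashed line, 16 of the 17 ER genes lie left of 0, and only the intervals of P4hb and Xbp1 exclude 0.

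The 4 groups differed in where their members lay. The cytosolic and nuclear members had a median log2 fold change of 0.0033 with 7 lower and 8 higher means, of which 7 (Hspa1a, Hspa4, Hspa8, Hsp90ab1, Dnajb1, Dnajb4 and Bag3) changed sign under another setting or with a mouse left out, and the mitochondrial chaperones one of -0.05 with 2 lower and 1 higher. The ER members had a median of -0.14 with 16 lower means of 17 (94.1%, beside 48.8% of all genes), and the stress regulators one of -0.23 with 6 lower of 7 (85.7%). With 1 mouse left out, the cytosolic median ran from -0.04 (9 lower and 6 higher, without BLM+HBO 2) to 0.08 (2 lower and 13 higher, without BLM+HBO 1). The ER median ran from -0.20 (without BLM+HBO 2) to -0.08 (without BLM+HBO 1), and that of the stress regulators from -0.28 (without BLM+HBO 2) to -0.12 (without BLM 3). Herpud1 was the ER member with a higher mean and Ddit3 the stress regulator with one. Genes in a group are known to be regulated together and are not independent observations, and no test was made over a group.

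The ER members include collagen-modifying enzymes, disulfide isomerases, lectin chaperones and BiP. P4hb (chr11:120560298-120573253, minus strand, GRCm38) encodes a protein disulfide isomerase that is also the beta subunit of the prolyl 4-hydroxylase that modifies collagen. It stood at 899.8, 845, 803 and 767 CPM in BLM 1 to 4 and at 616, 733 and 666 CPM in BLM+HBO 1 to 3. All BLM+HBO mice were below all BLM mice, and the mean was 19.0% lower (95% interval 1.84% to 33.2% lower). This is a log2 fold change of -0.30 (SE 0.124, adjusted P = 0.447 by edgeR's quasi-likelihood test), which passed the unadjusted threshold only. With no filter on low counts P4hb did not pass that threshold either, while Hspb1 and Xbp1 did.

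Serpinh1 encodes HSP47, an ER chaperone that binds procollagen. It stood at 755, 654, 617 and 670.1 CPM in BLM and at 324, 677 and 572 CPM in BLM+HBO. BLM+HBO 1 was the lowest of all mice and BLM+HBO 2 lay within the BLM values. Its log2 fold change was -0.36 (SE 0.222, adjusted P = 0.588 by edgeR), with an interval from 44.9% lower to 9.96% higher. Without BLM+HBO 1 it was -0.11. Without BLM+HBO 2 it was -0.59, and Serpinh1 was then the one member called in any fit that left out a mouse.

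Hspa5 encodes BiP, the HSP70 of the ER and the standard readout of the unfolded protein response. It stood at 744, 654, 723 and 708 CPM in BLM and at 515, 729 and 558 CPM in BLM+HBO. BLM+HBO 1 and 3 were below all BLM mice, while BLM+HBO 2 was within their range. For Hspa5 the log2 fold change was -0.24 (SE 0.145, adjusted P = 0.586 by edgeR), with an interval from 32.1% lower to 6.34% higher. The value became -0.40 once BLM+HBO 2 was dropped but -0.14 once BLM+HBO 1 was.

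Calreticulin (Calr), which with calnexin (Canx) folds glycoproteins, was also lowest in BLM+HBO 1 and 3. It read 693, 689.8, 651 and 678 CPM in BLM and 456, 704 and 583 CPM in BLM+HBO. BLM+HBO 2 was the highest of the 7 mice and BLM+HBO 1 the lowest. Calr had a log2 fold change of -0.22 (adjusted P = 0.622 by edgeR), and Canx one of -0.12 (adjusted P = 0.724 by edgeR).

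The remaining ER members were given the same test. Among the other disulfide isomerases, Pdia4 had a log2 fold change of -0.24, Pdia6 one of -0.13 and Pdia3 one of -0.09, with adjusted P between 0.529 and 0.819 by edgeR. The ER HSP90 (Hsp90b1) had one of -0.03 and the nucleotide exchange factor Hyou1 one of -0.12. The J-domain cochaperones of BiP gave -0.05 for Dnajb9, -0.10 for Dnajb11 and -0.14 for Dnajc3. Sdf2l1, a partner of Dnajb11, gave -0.28, and the ER stress-induced secreted factors Manf and Creld2 gave -0.27 and -0.16. None of these passed the unadjusted threshold.

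Herpud1, which serves ER-associated degradation, was the exception in direction. It stood at 139, 143, 138 and 105 CPM in BLM and at 192, 129 and 162 CPM in BLM+HBO. BLM+HBO 1 and 3 were above all BLM mice and BLM+HBO 2 below 3 of them, with BLM 4 the lowest of all. Its log2 fold change was 0.29 (SE 0.157, adjusted P = 0.533 by edgeR), and without BLM+HBO 2 it was 0.43 and passed the unadjusted threshold, whereas without BLM+HBO 1 it was 0.15. As shown above, its promoter differs from those of the other ER members searched in holding the element II and the ATF4 element. Atf3, Chac1 and Asns, the stress regulators with the ATF4 element, had log2 fold changes of -0.23, -0.27 and -0.18. Any part of these motifs in the Herpud1 value was not tested. The 7 ER members with the ER stress response element had log2 fold changes from -0.24 to -0.03 (median -0.14). The 8 ER members in the table without it, Herpud1 among them, had values from -0.36 to 0.29 (median -0.17), so the first range lay within the second.

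**Figure D2:**
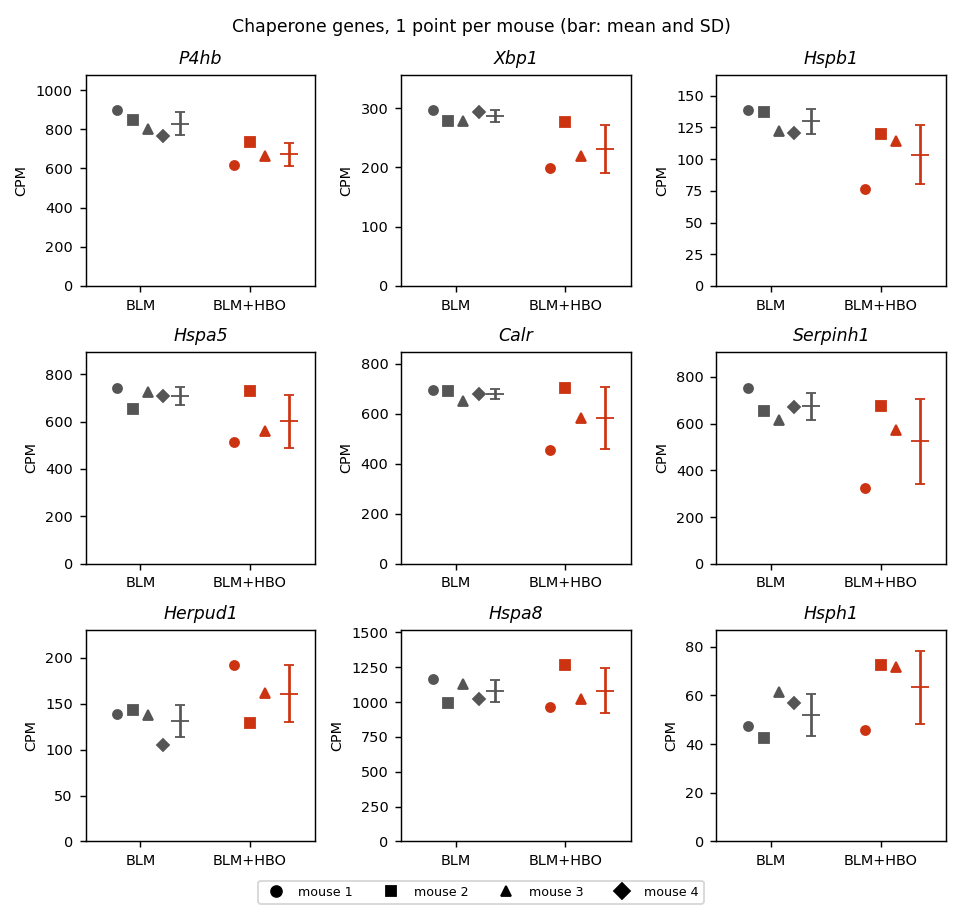
CPM of 9 genes (y axes from 0), 1 point per mouse by group, with bars for the mean and SD (BLM n = 4, BLM+HBO n = 3) and 1 marker shape per mouse number, which does not pair mice across groups. The groups separate for P4hb, Xbp1 and Hspb1, while BLM+HBO 2 lies among the BLM mice for Hspa5 and Serpinh1 and above them for Calr.

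The regulators of ER and amino acid stress include Xbp1, whose spliced mRNA encodes the factor that raises ER capacity. Gene counts do not separate the spliced from the unspliced form. Xbp1 (chr11:5520659-5525893, plus strand, GRCm38) read 297, 278, 278 and 294 CPM in BLM and 198, 277 and 219 CPM in BLM+HBO. All 3 BLM+HBO mice were below the BLM mice, but BLM+HBO 2 missed them by little. The mean was 19.3% lower (95% interval 1.34% to 34.1% lower), a log2 fold change of -0.31 (SE 0.130, adjusted P = 0.455 by edgeR), which passed the unadjusted threshold only.

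Ddit3 encodes CHOP, the factor of prolonged ER stress. It stood at 21.6, 14.6, 21.6 and 17.4 CPM in BLM and at 21.2, 17.7 and 22.6 CPM in BLM+HBO. The groups overlapped throughout, with a log2 fold change of 0.13 (SE 0.172, adjusted P = 0.823 by edgeR) and an interval from 16.4% lower to 42.7% higher. Atf4 had a log2 fold change of -0.13 and its target Asns, asparagine synthetase, one of -0.18. Atf3, Trib3 and Chac1, which ATF4 and CHOP are known to raise, gave -0.23, -0.28 and -0.27. Their adjusted P values by edgeR were between 0.615 and 0.768. Chac1 had only 2.98 to 5.51 CPM in any mouse and Atf3 ranged from 19.8 to 40.1 CPM within BLM alone, and their intervals were wide.

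In the cytosol, the abundant constitutive chaperones had nearly equal means. Hspa8 stood at 1163, 996, 1133 and 1025 CPM in BLM and at 963, 1264 and 1018 CPM in BLM+HBO. BLM+HBO 2 was the highest and BLM+HBO 1 the lowest of the 7 mice. Its log2 fold change was 0.0033 (SE 0.141, adjusted P = 0.995 by edgeR), with an interval from 19.5% lower to 24.8% higher, and its sign changed with the settings.

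Hsp90aa1, the stress-inducible HSP90, stood at 441, 395, 439 and 449 CPM in BLM and at 407, 489 and 469.7 CPM in BLM+HBO. BLM+HBO 2 and 3 were above all BLM mice and BLM+HBO 1 was above BLM 2 only. The fitted log2 fold change was 0.08 (SE 0.116, adjusted P = 0.840 by edgeR), with an interval from 11.8% lower to 26.4% higher. Hsp90ab1 had a log2 fold change of -0.0013, whose sign also changed with the settings.

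Hsph1, an HSP110 that recharges HSP70 with nucleotide, had the largest higher mean of the cytosolic members. It read 47.5, 42.4, 61.2 and 56.9 CPM in BLM and 45.9, 72.3 and 71.7 CPM in BLM+HBO. BLM+HBO 2 and 3 were above all BLM mice, whereas BLM+HBO 1 was below 3 of them. The fitted log2 fold change was 0.28 (SE 0.184, adjusted P = 0.606 by edgeR), and without BLM+HBO 1 it was 0.47 and passed the unadjusted threshold.

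Hspb1, a small heat shock protein (chr5:135887919-135889563, plus strand, GRCm38), had the largest difference of the lower cytosolic members after Hspa1b. It stood at 139, 137, 122 and 121 CPM in BLM and at 76.8, 119.5 and 114 CPM in BLM+HBO. The groups did not overlap, although BLM 4 and BLM+HBO 2 were close. Its log2 fold change was -0.33 (SE 0.155, adjusted P = 0.492 by edgeR), which did not pass the unadjusted threshold with edgeR. It passed with limma-trend, and with edgeR when no filter was applied or when BLM+HBO 2 was left out.

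The heat-inducible HSP70 genes were low and variable. Hspa1a stood at 9.75, 5.19, 7.69 and 4.79 CPM in BLM and at 4.68, 7.47 and 7.27 CPM in BLM+HBO, with a log2 fold change of -0.08 (SE 0.297, adjusted P = 0.944 by edgeR). Hspa1b stood at 23.4, 11.9, 15 and 14.4 CPM in BLM and at 6.44, 14.2 and 16.7 CPM in BLM+HBO, with a log2 fold change of -0.38 (SE 0.327, adjusted P = 0.705 by edgeR). BLM 1 was the highest mouse for both genes, and the groups overlapped. With 1 mouse left out, the Hspa1b value ran from -0.65 (without BLM+HBO 3) to -0.07 (without BLM+HBO 1). The interval for Hspa1b reached from 53.6% lower to 28.2% higher, wider than that of any constitutive cytosolic chaperone.

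The other cytosolic members lay between these. The factors Hsf1 and Hsf2 had log2 fold changes of 0.24 and 0.13, and Hspa4l and Hspa4, both of the HSP110 family, had 0.24 and -0.03. The J-domain cochaperones Dnaja1, Dnajb1 and Dnajb4 had values of 0.05, -0.0065 and 0.0066. Bag3, a cochaperone that links HSP70 to autophagy, had -0.13. None of these 8 genes passed the unadjusted threshold with edgeR, and their adjusted P values were between 0.541 and 0.989.

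The 3 mitochondrial chaperones had intervals within 1.5-fold. Hspd1 (HSP60) stood at 134, 139, 133 and 136 CPM in BLM and at 133, 152 and 128 CPM in BLM+HBO. The BLM values lay within those of BLM+HBO, with a log2 fold change of 0.02 (SE 0.0989, adjusted P = 0.962 by edgeR) and an interval from 13.1% lower to 18.2% higher. Its partner Hspe1 (HSP10), whose gene overlaps Hspd1 at the start, had a log2 fold change of -0.05. Hspa9, the mitochondrial HSP70, had one of -0.15 (adjusted P = 0.639 by edgeR).

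**Figure D3:**
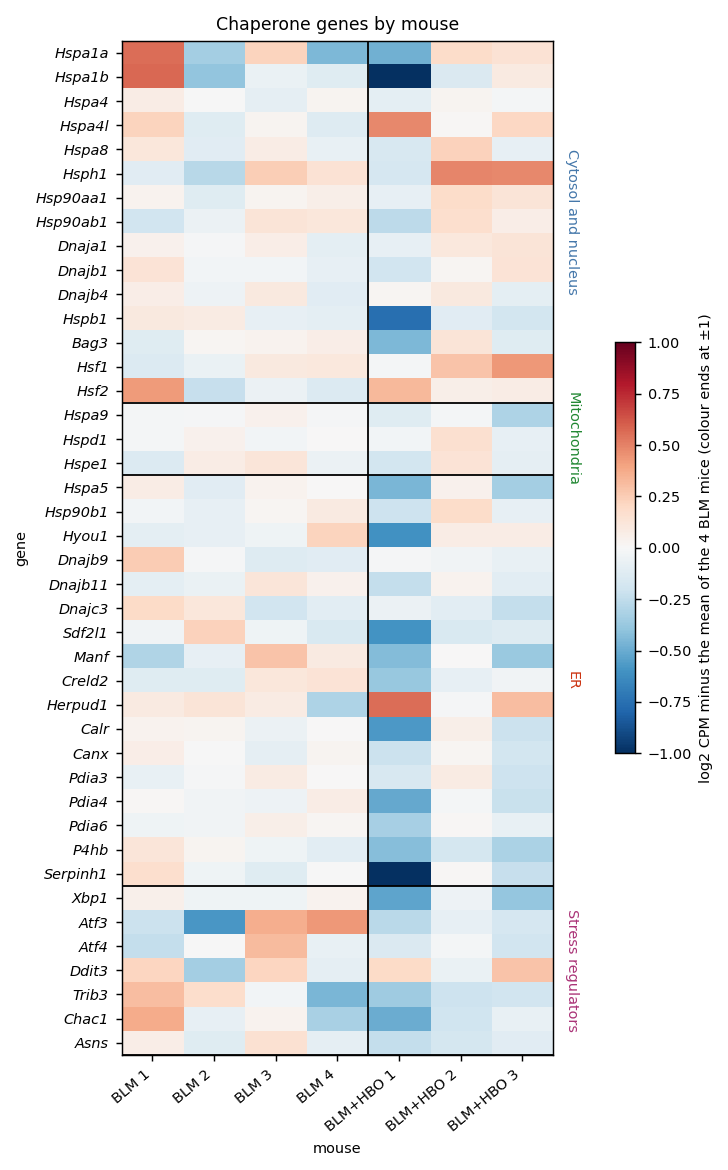
Log2 CPM of each of the 42 genes minus its mean over the 4 BLM mice (colour, ending at -1 and 1), with 1 column per mouse and genes ordered by compartment. BLM+HBO 1 is blue for most genes and BLM+HBO 3 for most ER genes, whereas BLM+HBO 2 is close to the BLM mice or red.

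The 3 BLM+HBO mice were not alike. In BLM+HBO 1, 14 of 17 ER members (82.4%) were below all 4 BLM mice, where 25.7% of all genes were. In BLM+HBO 3 the count was 12 (70.6%, beside 24.8% of all genes), and in BLM+HBO 2 it was 2 (11.8%, beside 15.7%). For the 15 cytosolic and nuclear members, BLM+HBO 1 had 8 below and 1 above all BLM mice, BLM+HBO 2 had 1 below and 8 above, and BLM+HBO 3 had 1 below and 4 above. For the 7 stress regulators, 3, 2 and 1 were below all BLM mice in BLM+HBO 1, 2 and 3 (42.9%, 28.6% and 14.3%), and 0, 0 and 1 were above. Of all genes, 25.7%, 15.7% and 24.8% were below and 27.1%, 15.4% and 24.6% above in these 3 mice. Summed over the ER members, the level was 6066, 5804, 5818 and 5862 CPM in BLM and 4524, 5939 and 5122 CPM in BLM+HBO. Summed over the cytosolic and nuclear members, it was 3580, 3407, 3772 and 3628 CPM in BLM and 3156, 4031 and 3660 CPM in BLM+HBO. BLM+HBO 2 therefore lay within the BLM range for the ER sum and above it for the cytosolic sum.

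Leaving out single mice moved the counts. Without BLM+HBO 2, 8 members had a lower mean at an unadjusted P below 0.05 by edgeR, namely Xbp1, Hspa5, Pdia4, Serpinh1, P4hb, Calr, Hspb1 and Manf, and 2 a higher one, Herpud1 and Hspa4l. In that fit 15.9% of all genes had such a P, Serpinh1 alone was called where 10.7% of all genes were, and the lowest adjusted P of a member was 0.103. Without BLM+HBO 1, no member had a lower mean at that P and 2 had a higher one, Hsph1 and Hsf1, beside 5.7% of all genes. Without BLM+HBO 3, and without BLM 2, there was none in either direction, beside 7.14% and 7.05% of all genes. Without BLM 1, Manf was lower and Hspa4l higher, beside 6.81% of all genes in either direction. Without BLM 3 or BLM 4, P4hb alone was lower, beside 12% and 11.1% of all genes. Across all settings, 14 to 16 of the 17 ER members had a lower mean.

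The summed fibroblast, macrophage and plasma cell markers were lowest in the same mice as the ER members, BLM+HBO 1 and 3. The summed level of 10 markers of collagen-producing fibroblasts was 12300, 9045, 8168 and 7402 CPM in BLM and 2530, 7973 and 4269 CPM in BLM+HBO, and 9 of the 10 were lower at an unadjusted P below 0.05 by edgeR. For 9 macrophage markers it was 7144, 6925, 5679 and 5081 CPM in BLM and 1634, 4613 and 2034 CPM in BLM+HBO, with 7 of the 9 lower. In both lists BLM+HBO 1 and 3 were the lowest mice, as they were for the ER sum, and BLM+HBO 2 the nearest to BLM. For 9 plasma cell markers (among them Txndc5, also counted below as an ER folding gene) the sum was 4472, 3294, 2833 and 5162 CPM in BLM and 1898, 3304 and 1641 CPM in BLM+HBO, with 2 lower. These plasma cell markers went both ways, with 5 lower means and 4 higher ones (Mzb1, Prdm1, Pou2af1 and Ighm). The sum for 9 alveolar type 2 markers was 9534 to 17350 CPM in BLM and 25130, 12020 and 29120 CPM in BLM+HBO, with 1 higher. For this sum BLM+HBO 1 and 3 were the highest mice. No defining marker of these 4 lists that was tested stood at 0 in a mouse, and their part in the chaperone values was not tested.

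The other marker lists were counted in the same way. At an unadjusted P below 0.05 by edgeR, 2 of 5 club cell markers were higher, 1 of 6 alveolar type 1 markers was lower, and 0 of 7 endothelial and 0 of 6 neutrophil markers passed. All 7 endothelial markers had a higher mean, where 48.8% of all genes had a lower one. Their sum was 2254 to 3080 CPM in BLM and 3331, 2696 and 3354 CPM in BLM+HBO 1, 2 and 3. The neutrophil sum was 129 to 219 CPM in BLM and 521, 81.2 and 117 CPM in BLM+HBO 1, 2 and 3. In BLM+HBO 1, all 6 neutrophil markers were above all 4 BLM mice (27.1% of all genes were). The part of either list in the chaperone values was not tested. The club cell markers went both ways. Scgb3a1 and Bpifa1 had log2 fold changes of -1.13 and -1.18 and were lower at that P with limma-trend only, and Scgb3a2 had one of 0.67. Of the dividing cell markers, 4 of 8 were lower, with summed levels of 198 to 239 CPM in BLM and of 113, 142 and 219 CPM in BLM+HBO 1, 2 and 3. Of 11 immediate-early genes, which respond to handling and stress within minutes, 1 was higher and 2 lower, and 0 of 2 cold-inducible RNA-binding proteins passed. Of 11 clock genes, 6 were higher and 1 lower. The time of day of collection is not given in the sources used here, and its part in the chaperone values was not tested.

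**Figure D4:**
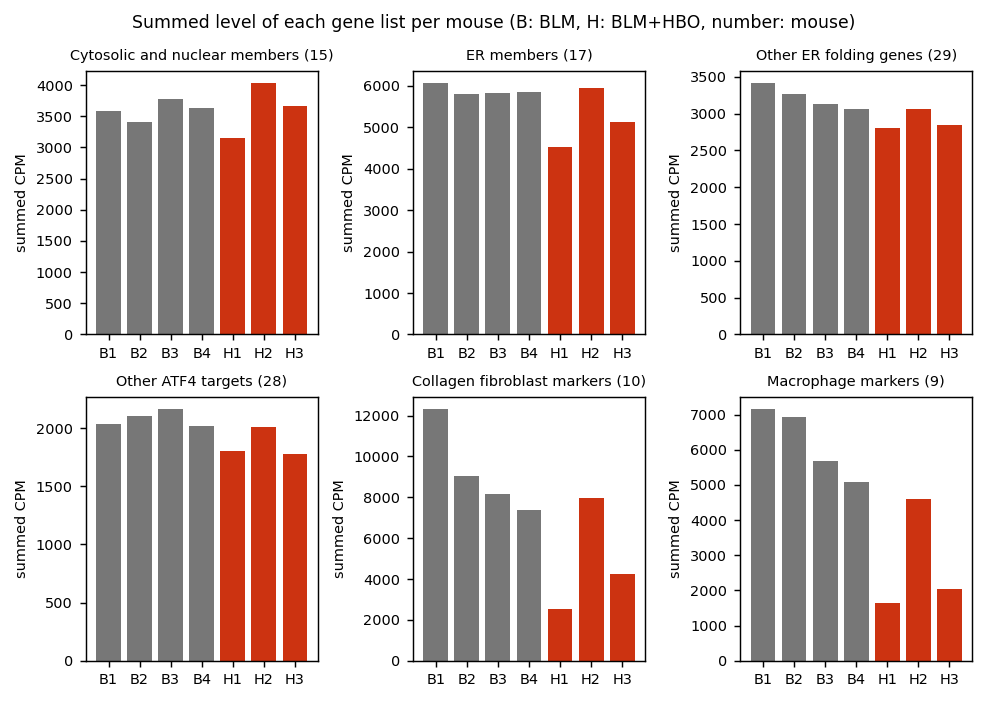
Summed CPM per mouse (bars from 0, grey BLM 1 to 4, red BLM+HBO 1 to 3) for the cytosolic and ER members, 2 further gene lists and the fibroblast and macrophage markers, with the number of genes in brackets. BLM+HBO 1 and 3 are the lowest bars for the ER members (4524 and 5122 CPM), for fibroblasts (2530 and 4269 CPM) and for macrophages (1634 and 2034 CPM). The same holds for the other ER folding genes (2807 and 2846 CPM) and the other ATF4 targets (1800 and 1775 CPM). For the cytosolic members, BLM+HBO 3 (3660 CPM) lies within the BLM range.

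Further genes of the same pathways were listed by function. Of 29 other ER folding, glycosylation and translocation genes, 25 had a lower mean (86.2%), with a median log2 fold change of -0.12. At an unadjusted P below 0.05 by edgeR, 3 were lower and 0 higher (10.3%, beside 5.54% of all genes lower and 10.7% in either direction). The 3 were Sec61a1 of the channel that moves proteins into the ER, Ssr3 of a complex associated with that channel, and Spcs3 of the signal peptidase. Of 23 ER stress sensors and degradation genes, 20 had a lower mean, with a median of -0.11. Among them 2 passed the same P limit, Creb3l1 and Edem1, both lower (8.7%, beside 5.54% of all genes lower and 10.7% in either direction). Creb3l1, a membrane-bound factor known to raise collagen genes, was called. It stood at 48.0, 40.6, 39.3 and 38.8 CPM in BLM and at 16.1, 31.3 and 30.6 CPM in BLM+HBO, without overlap. Its log2 fold change was -0.68 (SE 0.215, adjusted P = 0.423 by edgeR), and without BLM+HBO 1 it was -0.43 and no longer called.

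The ATF4 targets outside the members held more low P values. Of 28 tested, 6 were lower at an unadjusted P below 0.05 by edgeR and 0 higher (21.4%, beside 5.54% of all genes lower and 10.7% in either direction). The mean was lower for 23, with a median log2 fold change of -0.20. The 6 were Aldh18a1, Slc7a5, Cebpb, Gars, Eif4ebp1 and Stc2. Slc7a5, a carrier of large neutral amino acids, stood at 39.9, 31.8, 27.1 and 25.7 CPM in BLM and at 15.4, 24.8 and 17.4 CPM in BLM+HBO, without overlap. Its log2 fold change was -0.69 (SE 0.206, adjusted P = 0.423 by edgeR). It was -0.55 without BLM 1 and -0.56 without BLM+HBO 1, and not called in either case. Stc2, a secreted glycoprotein, stood at 14.0, 11.7, 11.4 and 11.1 CPM in BLM and at 5.70, 10.2 and 5.85 CPM in BLM+HBO, with a log2 fold change of -0.73 (adjusted P = 0.423 by edgeR), which was not called without BLM+HBO 1 or without BLM+HBO 3. No ATF4 target passed an adjusted threshold, and the members Atf4, Asns, Trib3 and Chac1 did not pass the unadjusted one.

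Of 29 other cytosolic chaperones, 2 were higher and 1 lower at an unadjusted P below 0.05 by edgeR (10.3%, beside 10.7% of all genes). The mean was lower for 21 of the 29 (72.4%, beside 48.8% of all genes), and the median log2 fold change was -0.05. Hspb6, a small heat shock protein of muscle, stood at 7.27, 7.16, 5.49 and 9.58 CPM in BLM and at 15.9, 10.6 and 11.9 CPM in BLM+HBO. The groups did not overlap, with a log2 fold change of 0.79 (SE 0.227, adjusted P = 0.423 by edgeR). Heart muscle markers were also higher, with 9 of 10 passing an unadjusted P of 0.05. Their summed level was 73.4 to 199.3 CPM in BLM and 744, 585 and 172 CPM in BLM+HBO, and their part in the Hspb6 value was not tested. Fkbp5, a cochaperone of HSP90 that glucocorticoids induce, stood at 153, 119, 87.6 and 49.2 CPM in BLM and at 31.9, 80.6 and 41.2 CPM in BLM+HBO. The groups overlapped, with a log2 fold change of -0.99 (SE 0.398, adjusted P = 0.442 by edgeR), and it was called by edgeR but not by DESeq2, and edgeR lost the call when BLM 1, BLM 2, BLM+HBO 1 or BLM+HBO 3 was left out. Fkbp4, a related cochaperone, was the other higher gene, with a log2 fold change of 0.33 (adjusted P = 0.455 by edgeR). Of 8 other mitochondrial chaperones and proteases, 0 passed, and their median was 0.0010.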

How the data were processed

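RNA-seq was made from the right lung lobes of 4 BLM and 3 BLM+HBO mice, with 1 library per mouse (NEBNext Ultra, paired ends). Reads were trimmed (Trim Galore) and aligned to GRCm38 (HISAT2 2.2.0, per the submitters' processing notes) by the authors, who deposited raw read counts per gene from featureCounts with its defaults. These defaults ignore strand and do not count a read with several alignments or one that lies on more than 1 gene. The annotation release is not given in the sources used here. The deposited table held 55401 genes, of which 55141 had a symbol in GENCODE vM21.

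Low counts were filtered by filterByExpr with its defaults. These asked for 15 counts in total and the CPM equivalent of 10 counts in at least 3 libraries, the size of the smaller group. The rest was normalised by TMM and tested with edgeR 4.0.16 (quasi-likelihood test) under R 4.3.3, fitted on 17465 genes with Benjamini-Hochberg adjustment over all of them. DESeq2 1.42.0, the tool of the study, and limma 3.58.1 were run beside it. The fits were tested on simulated counts with known changes. These were drawn gene by gene, so they do not cover differences that many genes of a mouse share. Called means an unadjusted P below 0.05 and a fold change above 1.5. CPM used TMM library sizes, RPKM also the exon length of the deposited table, and log2 CPM a prior count of 2. The other settings were RLE and upper-quartile factors, no filter, a filter of 1 CPM in 3 libraries, robust empirical Bayes, a replicate block, other thresholds and leaving out each mouse.

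The members and gene lists were chosen with earlier results of these data known. All members could be named. Those with P below 0.05 or without overlap, and 1 or more main genes per compartment, got every mouse's value, and Calr and Herpud1 were given in full after their values were seen. Genes of other pathway lists got values where called, and Fkbp4 and the further names beside counts were given after their values were seen. Promoters came from RefSeq (GRCm38.p6), which held no entry used here for Hspa8, Hsp90aa1, Hsp90ab1, Hsf1, Hspa9, Hyou1 and Manf.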

Additional observations from a re-analysis of the deposited data

Results flagged for a closer look

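Single mice were compared with the rest of their group by Dixon's ratio, the gap to the nearest mouse over the whole range, in 47 gene values of the 4 BLM mice, and 2 exceeded the 95% critical value. By chance about 1 in 20 would. For Hspa9 (ratio 0.875), BLM 3 had a log2 CPM of 7.78 and the other BLM mice 7.71 to 7.72, a gap that is small beside the difference of BLM+HBO 3 in the same gene. For Herpud1 (ratio 0.89), BLM 4 had a log2 CPM of 6.72 and the other BLM mice 7.11 to 7.16. The 3 BLM+HBO mice were too few for this comparison.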

How the results depend on the processing

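Of the gene log2 fold changes recomputed under settings that kept all 7 mice, 361 kept their sign and side of the threshold, 8 reversed, 2 newly passed and 5 no longer passed. With 1 mouse left out these numbers were 281, 21, 12 and 15. Where results moved, the cause was not tested. The 1098 genes called by edgeR became 1940 with no filter, 509 at a fold change above 2, 319 at a P limit of 0.01, 0 at an adjusted P below 0.1 and 659 to 1914 with 1 mouse left out. At an adjusted P below 0.05, edgeR's 0 genes (1861 at an unadjusted P below 0.05) became 387 with no filter, 128 with DESeq2 and 0 to 267 with 1 mouse left out. The 0 members called became 2 at a fold change above 1.2 and 0 to 1 with 1 mouse left out. Those 2 are 4.76% of the members, beside 10.7% of all genes at an unadjusted P below 0.05 whatever the fold. The 2 members with a lower mean at an unadjusted P below 0.05 became 0 to 8, and the 0 with a higher mean became 0 to 2. With no filter the 2 were Hspb1 and Xbp1 in place of P4hb and Xbp1. The mitochondrial median of -0.05 ran from -0.14 (without BLM+HBO 2) to 0.02 (without BLM+HBO 1). Mouse numbers do not pair the groups in the labels, and mice with the same number did not deviate together (correlations of -0.00797, -0.0660 and 0.161, with BLM 1 correlating best with BLM+HBO 2). With the replicate block, 1258 genes and 0 members were called, and 0 members had a lower mean at an unadjusted P below 0.05. Signs that changed with all mice kept belonged to genes near 0. Hspa8 had a log2 fold change of -0.0030 with no filter, -0.0037 with limma-trend and -0.0281 with the block. Hsp90ab1 had 0.0206 with upper-quartile factors, 0.0029 with the 1 CPM filter and 0.0319 with the block. Dnajb1 had 0.0183 with upper-quartile factors, and Dnajb4 -0.0299 with the block. With 1 mouse left out, the log2 fold change ran from -0.2168 to 0.1392 for Hspa1a, -0.0601 to 0.0059 for Hspa4, -0.1250 to 0.0804 for Hspa8, -0.0938 to 0.1152 for Hsp90ab1, -0.0863 to 0.0778 for Dnajb1 and -0.0415 to 0.0533 for Dnajb4. It ran from -0.2783 to 0.0060 for Bag3, -0.0595 to 0.0651 for Hspd1, -0.1437 to 0.0207 for Hspe1, -0.1489 to 0.0540 for Hsp90b1, -0.2332 to 0.0703 for Hyou1 and -0.0929 to 0.0430 for Dnajb9. The median of all genes stayed between -0.0053 and 0.0317 under the settings run, and the widest intervals among the members were those of the low-count genes Hspa1b, Hspa1a and Chac1.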
